A study of Mus musculus with 18 samples.

Results

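Scavenger receptors are membrane proteins with which macrophages bind modified lipoproteins, bacterial surfaces, dying cells and spent plasma proteins. The 9 receptor genes described here are *Msr1* and *Marco* of class A, *Cd36* and *Scarb1* of class B, *Olr1* and *Mrc1* of class E, *Stab1* of class H, *Cd163* of class I and *Lrp1* of class L. They were chosen by name as scavenger receptors known in macrophages, with earlier results of these data known. All 9 of them were among the 20615 genes of the count table, and 9 of 9 passed the filter on low counts, as did 15789 genes in all.

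The study asked how macrophages of a mouse model of Sjögren's syndrome respond to apoptotic cells (AC). RNA-seq was done on 18 samples of bone marrow-derived macrophages (BMDMs), 3 in each of 6 groups. BMDMs came from C57BL/6 (B6) mice and from C57BL/6.NOD-Aec1Aec2 (SjSS) mice, a congenic strain with the NOD intervals *Idd3* (Aec1) and *Idd5* (Aec2) on the B6 background. BMDMs of each strain were left untreated (control), given AC, or given CpG, an oligodeoxynucleotide that the study elsewhere uses as its agonist of TLR9. All mice were female and 7 to 12 weeks old. All BMDMs were grown for 7 days with 20% L929 supernatant, a source of M-CSF, replated at 300000 cells per well and kept at 5% supernatant before treatment. Thymocytes killed with dexamethasone served as AC and were offered for 2 h, 5 to each BMDM. CpG treatment lasted 6 h at 1 µM. After the wash, RNA was collected 3 h later by the sample labels and 4 h later by the methods. Each group thus held samples of 3 mice, and the text does not say whether same-numbered samples share a mouse or which strain's thymocytes a sample received.

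The families differ in what they bind. Class A receptors are collagen-like trimers that take up polyanions and bacteria, and class B receptors handle fatty acids, oxidized lipoproteins and cholesterol esters. *Mrc1* and *Stab1* clear glycoproteins and altered matrix proteins, *Cd163* clears haptoglobin-hemoglobin complexes, and *Lrp1* is a large endocytic receptor of many ligands. CD36, STAB1 and LRP1 have also been described as receptors in the uptake of apoptotic cells.

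Promoter windows of 300 bases, from 250 before to 50 after a gene's start, were read from RefSeq (GRCm38.p6) for 7 of the 9 receptors. Those of *Olr1* and *Marco*, whose RNA rose most, and of *Mrc1*, whose AC response differed most between the strains, are printed 5′ to 3′ along the gene's strand, with motif matches in capitals.
Olr1: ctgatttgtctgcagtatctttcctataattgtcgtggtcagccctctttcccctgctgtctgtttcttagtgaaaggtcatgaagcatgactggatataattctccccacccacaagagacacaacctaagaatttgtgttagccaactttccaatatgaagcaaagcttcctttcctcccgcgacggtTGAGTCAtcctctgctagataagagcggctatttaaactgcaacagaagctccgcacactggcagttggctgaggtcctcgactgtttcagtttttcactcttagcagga
Marco: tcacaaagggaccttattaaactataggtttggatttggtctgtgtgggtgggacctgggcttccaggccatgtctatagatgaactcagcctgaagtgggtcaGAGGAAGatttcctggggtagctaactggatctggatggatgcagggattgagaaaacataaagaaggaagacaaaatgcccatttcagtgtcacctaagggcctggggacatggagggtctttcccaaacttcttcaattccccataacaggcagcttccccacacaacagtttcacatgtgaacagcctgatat
Mrc1: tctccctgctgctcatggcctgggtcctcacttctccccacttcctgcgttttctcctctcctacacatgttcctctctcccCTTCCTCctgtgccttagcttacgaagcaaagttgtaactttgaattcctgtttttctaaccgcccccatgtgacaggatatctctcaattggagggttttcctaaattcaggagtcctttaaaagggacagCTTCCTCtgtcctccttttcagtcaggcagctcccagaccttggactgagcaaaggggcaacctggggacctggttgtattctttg
The windows lie at chr6:129507116-129507415 (minus strand), chr1:120504975-120505274 (minus strand) and chr2:14229164-14229463 (plus strand). The capitals in the *Olr1* window mark a match to the AP-1 motif TGACTCA on the opposite strand, whose first base lies 60 bases before the start. Those in the *Marco* window mark GAGGAAG, the PU.1 motif, 146 bases before the start. *Mrc1* held the PU.1 motif on the opposite strand, 168 and 36 bases before the start. On either strand, TGACTCA occurred in 5.20% of the 32851 windows of all genes and GAGGAAG in 13.6%. Of the other motifs searched, TTCNNNGAA (STAT, in 8.30% of all windows) was found in the window of *Lrp1*. GAAANNGAA (core of the interferon-stimulated response element, 8.56%), the NF-kB site (4.51%) and CACGTG (E-box, 7.15%) were found in none of the 7 windows. None of these motifs overlapped another in the 7 windows, and a match here describes the letters only.

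Library totals ran from 30688336 to 57139662 counts, with a median of 47912525. Levels are given as CPM, in which a gene's count is divided by its library's total after TMM scaling, and levels of different genes were compared only after division by the length of annotated exon in kb. All 8 macrophage markers (*Adgre1*, *Csf1r*, *Itgam*, *Cd68*, *Lyz2*, *Mertk*, *Fcgr1*, *Cd14*) were present in every sample, with a summed level of 15105 to 23748 CPM. The summed level of 12 T-lineage markers was 4.98 to 5.64 CPM in AC treated B6 and 14.1 to 18.6 CPM in AC treated SjSS BMDMs, and at least 8.28 CPM in control B6 and 10.5 CPM in control SjSS BMDMs. *Cd4* (3.36 to 17.1 CPM) held most of that sum, and each of the other 11 markers was at 0.982 CPM or lower. *Rag1* was at 0 in every sample of the 4 control and CpG groups, and was counted in both AC treated groups, at 0.178 CPM or lower. Granulocyte markers (2 of 6 in the table) reached a summed level of 2.48 CPM, dendritic cell markers 3.54 CPM and B cell markers 0.816 CPM. The 3 endothelial markers summed to 48.5 to 56.2 CPM in AC treated SjSS and 25.8 to 28.3 CPM in AC treated B6 BMDMs. Their sum was also higher in SjSS than in B6 BMDMs without treatment (41.0 to 42.5 against 27.5 to 32.3 CPM). With CpG it was 32.7 to 40.7 CPM in SjSS against 18.4 to 21.4 CPM in B6 BMDMs. *Pecam1* (16.2 to 36.2 CPM) was the most abundant of these markers. The part of these cells in the results was not tested. In bulk RNA, fewer cells that express a receptor and less RNA per cell cannot be told apart.

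**Figure D1:**
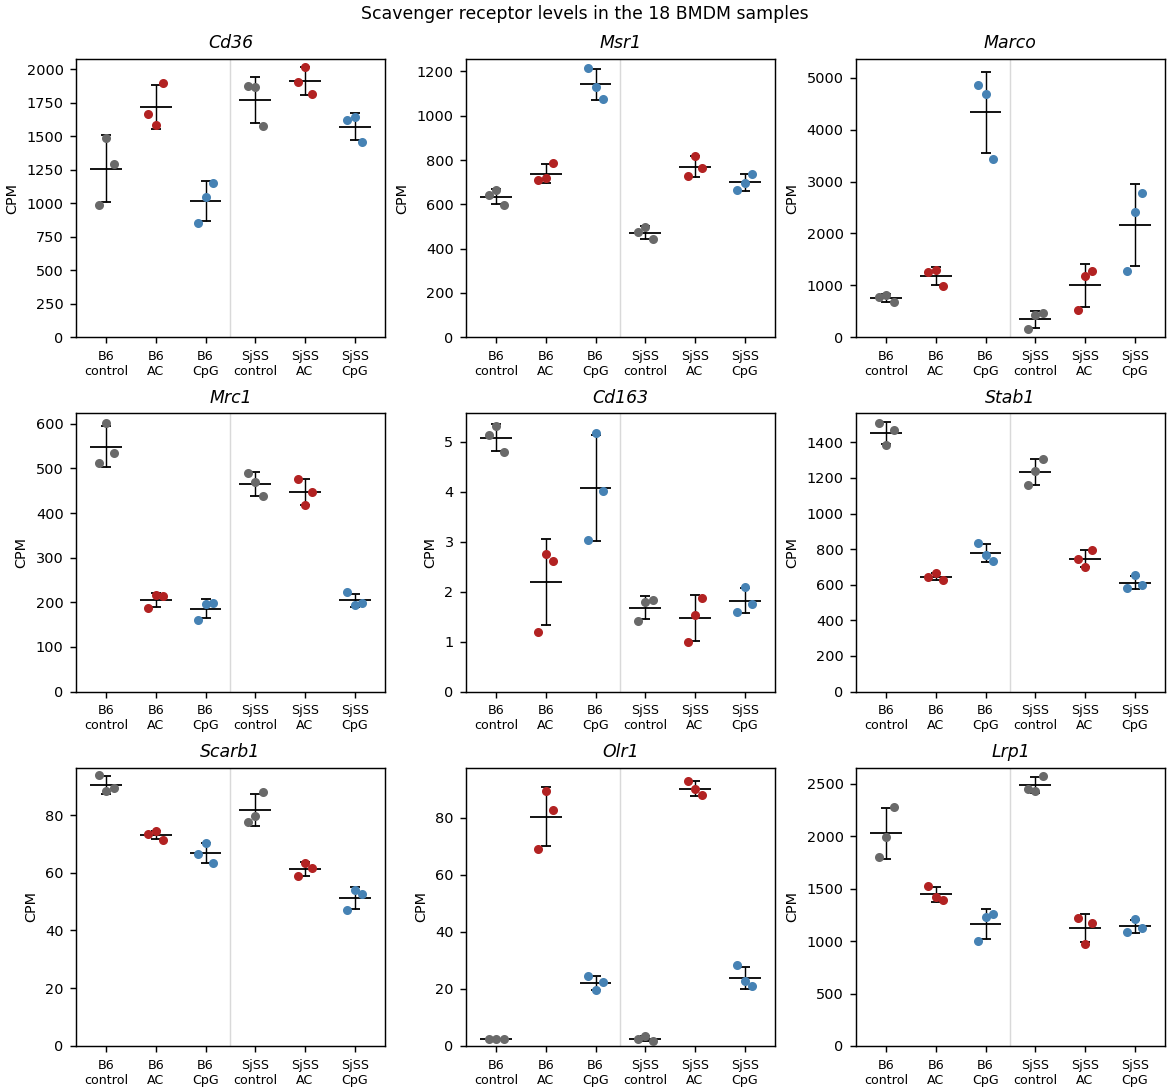
CPM of each receptor (linear axis from 0) in the 3 samples of each group, with the group mean as a bar and the SD as error bars. *Olr1* stands near 2.5 CPM in both control groups and above 69 CPM in all AC samples, and *Mrc1* overlaps its control level in AC treated SjSS but not in AC treated B6 BMDMs.

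Per kb of exon, *Marco* and *Cd36* had the highest levels of the 9 receptors in every group. In control B6 BMDMs *Marco* was at 392 ± 37.9 and *Cd36* at 350 ± 69.9 CPM per kb (SD, n = 3), *Stab1* at 141, *Lrp1* at 114, *Msr1* at 100 and *Mrc1* at 86.2. *Scarb1* was at 10.7, and *Cd163* and *Olr1* were under 1 CPM per kb. In control SjSS BMDMs *Cd36* stood first at 494 ± 47.7 and *Marco* second at 180 ± 86.1 CPM per kb. Summed over the receptors, the level was 1196 ± 86.9 in control, 1414 ± 42.5 in AC treated and 2899 ± 378 CPM per kb in CpG treated B6 BMDMs. In SjSS BMDMs it was 1092 ± 73.0, 1410 ± 212 and 1838 ± 403 CPM per kb. With CpG, *Marco* made up 77.6% of the sum in B6 and 61.0% in SjSS BMDMs, so that the sum largely follows this gene. Summed without division by length, the AC treated groups lay below control B6 BMDMs, at 0.898 of it in B6 and 0.907 in SjSS.

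**Figure D2:**
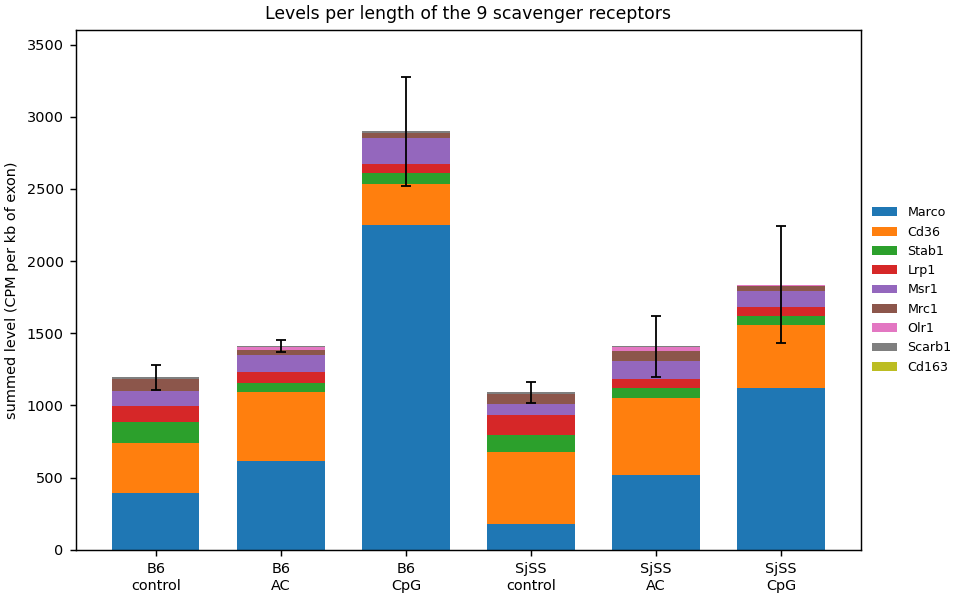
Mean CPM per kb of exon of the 9 receptors, stacked for each group, with the SD of the summed level over 3 samples as error bars. The sum is highest in CpG treated B6 BMDMs, at 2899, where *Marco* takes 2251 of it.

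A receptor is said to rise or fall where the adjusted p is under 0.05 (edgeR's quasi-likelihood test, Benjamini-Hochberg over all tested genes), and is called where its log2 fold change is also over 1.3 in size, the thresholds of the study's methods. With AC, 3 receptors rose and 5 fell in B6 BMDMs, where 19.8% of all tested genes rose and 18.2% fell. In SjSS BMDMs 3 rose and 3 fell with AC, where 28.5% of all genes rose and 29.3% fell. With CpG, 3 rose and 4 fell in B6 BMDMs, against 28.1% and 29.7% of all genes. In CpG treated SjSS BMDMs 3 rose and 4 fell too, against 27.8% and 26.3%. *Olr1* and *Msr1* rose in all 4 responses, and *Stab1*, *Lrp1* and *Scarb1* fell in all 4. With AC in B6 BMDMs, *Olr1* was called higher (as were 2.40% of all genes) and *Mrc1* lower (2.05%). With AC in SjSS BMDMs, *Olr1* and *Marco* were called higher (7.08%). With CpG, *Olr1* and *Marco* were called higher in B6 (5.86%) and in SjSS BMDMs (4.80%), and *Mrc1* was called lower in B6 BMDMs (6.88%). The median log2 fold change of the receptors was -0.31 with AC in B6, -0.06 with AC in SjSS, -0.33 with CpG in B6 and -0.17 with CpG in SjSS BMDMs, and that of all genes between -0.04 and 0.001.

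**Figure D3:**
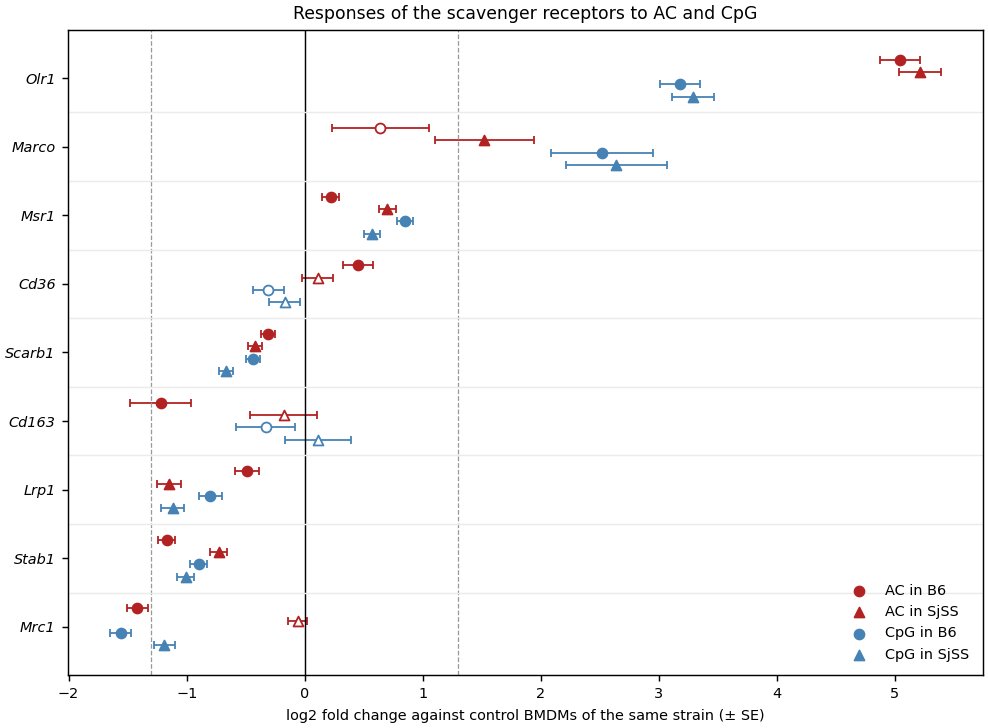
Log2 fold change (± SE) of each receptor against control BMDMs of the same strain, for AC (red) and CpG (blue) in B6 (circles) and SjSS (triangles). Filled symbols have an adjusted p under 0.05, and dashed lines mark 1.3 in size. *Olr1* lies between 3.18 and 5.21, *Marco* between 0.64 and 2.64, and *Stab1*, *Lrp1* and *Scarb1* lie below 0 throughout.

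The choice of scaling bears on AC treated SjSS BMDMs. Scaled on library totals alone, without TMM factors, the median over all genes shifted by -0.41 in the AC response of SjSS, by -0.30 in the strain difference with AC, by -0.34 in the interaction of strain and AC, by -0.18 and -0.13 in the CpG responses of B6 and SjSS, and by under 0.1 in size elsewhere. Under this scaling 13.1% of all genes rose and 56.4% fell with AC in SjSS BMDMs, and 13.1% were higher and 53.0% lower in SjSS than in B6 BMDMs with AC. In the interaction of strain and AC these shares were 9.09% and 41.8%. A receptor whose direction, test result or call differs under this scaling is given with its value there, and all other changes are relative to all genes as scaled by TMM.

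*Msr1* (chromosome 8, 39581685 to 39642673, minus strand), a class A receptor for acetylated LDL and bacterial lipids, rose in every response. Its level in replicates 1, 2 and 3 was 644, 665 and 596 CPM in control B6, 708, 718 and 787 CPM with AC and 1217, 1131 and 1076 CPM with CpG. The SjSS samples were at 477, 498 and 442 CPM in control, 726, 819 and 763 CPM with AC and 665, 695 and 738 CPM with CpG. Within each strain no treated sample overlapped a control sample, and the CpG treated B6 samples stood above all others. The log2 fold change with AC was 0.22 ± 0.07 (SE) in B6 (adjusted p = 0.0155) and 0.70 ± 0.07 in SjSS BMDMs (adjusted p = 1.86e-08). With CpG it was 0.85 ± 0.07 in B6 (adjusted p = 1.27e-09) and 0.57 ± 0.07 in SjSS BMDMs (adjusted p = 5.23e-07). The small AC response in B6 BMDMs no longer passed without replicate 3 of control B6 (0.17, adjusted p = 0.0849), without replicate 3 of AC treated B6 (0.17, adjusted p = 0.0965) or scaled on library totals (0.14, adjusted p = 0.0726).

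*Marco* (chromosome 1, 120474538 to 120505024, minus strand), the class A receptor for unopsonized particles and bacteria, had the largest increases with CpG in log2 fold change after *Olr1*. It was at 781, 810 and 672 CPM in control B6, 1254, 1303 and 977 CPM with AC and 4868, 4694 and 3435 CPM with CpG. In the SjSS groups it was at 156, 424 and 460 CPM in control, 524, 1184 and 1283 CPM with AC and 1267, 2422 and 2785 CPM with CpG. Replicate 3 was the lowest sample of every B6 group and replicate 1 of every SjSS group, and relative to its mean the spread within the SjSS groups was the widest among the receptors. With CpG *Marco* rose by 2.52 ± 0.43 (SE) on the log2 scale in B6 (5.74-fold, adjusted p = 1.95e-04) and by 2.64 ± 0.43 in SjSS BMDMs (6.22-fold, adjusted p = 1.56e-04). With AC it rose by 1.52 ± 0.42 in SjSS BMDMs (adjusted p = 0.00665), and without replicate 1 of control SjSS by 1.17 (adjusted p = 0.0213), under the fold threshold. On library totals the rise was 1.10 (adjusted p = 0.0292), under that threshold as well. That rise did not pass when only the SjSS control and AC samples were fitted (1.51, adjusted p = 0.0918). In B6 BMDMs the AC difference of 0.64 ± 0.41 did not pass (adjusted p = 0.250), although AC and control samples did not overlap, and it passed when only those 2 groups were fitted (0.63 ± 0.12, adjusted p = 0.00285). With the replicate number as a block within strain, *Marco* rose with AC in B6 BMDMs (0.64 ± 0.07, adjusted p = 2.42e-06) and in SjSS BMDMs (1.56 ± 0.08, adjusted p = 8.43e-12).

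*Cd36* (chromosome 5, 17781690 to 17888801, minus strand), the class B receptor for long-chain fatty acids and oxidized LDL, passed the test in 1 of the 4 responses. It was at 988, 1485 and 1295 CPM in control B6, 1666, 1583 and 1899 CPM with AC and 853, 1046 and 1150 CPM with CpG. In SjSS BMDMs it was at 1874, 1868 and 1575 CPM in control, 1902, 2016 and 1813 CPM with AC and 1617, 1642 and 1455 CPM with CpG. The B6 AC samples lay above all B6 control samples, whereas treated and control samples overlapped in the other 3 responses. *Cd36* rose with AC in B6 BMDMs by 0.45 ± 0.13 (SE) on the log2 scale (adjusted p = 0.0116). This rise did not pass without replicate 3 of AC treated B6 (0.37, adjusted p = 0.0581) or when only the 2 groups were fitted (0.44, adjusted p = 0.0535). In SjSS BMDMs the AC difference was 0.11 ± 0.13 (adjusted p = 0.505), and it was -0.30 (adjusted p = 0.0433) when scaled on library totals. The CpG difference in B6 BMDMs, -0.31 ± 0.13 (adjusted p = 0.0556), passed without replicate 1 of control B6 (-0.45, adjusted p = 0.00236), without replicate 3 of CpG treated B6 (-0.39, adjusted p = 0.0245), on library totals (-0.48, adjusted p = 0.00369) and with DESeq2 (-0.28, adjusted p = 0.0403). In SjSS BMDMs it was -0.17 ± 0.13 (adjusted p = 0.282).

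*Scarb1* (chromosome 5, 125277087 to 125341094, minus strand), the other class B receptor, takes up cholesterol esters from HDL. Its level was 94.0, 88.3 and 89.3 CPM in control B6, 73.4, 74.3 and 71.5 CPM with AC and 66.6, 70.3 and 63.5 CPM with CpG. The SjSS samples were at 77.6, 79.7 and 88.1 CPM in control, 58.8, 63.5 and 61.8 CPM with AC and 47.1, 54.2 and 52.8 CPM with CpG. Every treated sample lay below every control sample of its strain. *Scarb1* fell by 0.31 ± 0.06 (SE) on the log2 scale with AC in B6 (adjusted p = 4.35e-04) and by 0.42 ± 0.06 in SjSS BMDMs (adjusted p = 7.77e-06). With CpG it fell by 0.44 ± 0.06 in B6 (adjusted p = 3.50e-06) and by 0.67 ± 0.06 in SjSS BMDMs (adjusted p = 1.39e-08).

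*Olr1* (chromosome 6, 129485244 to 129507165, minus strand) encodes LOX-1, a lectin-like receptor for oxidized LDL, and its promoter window is the one with the AP-1 match printed above. It had the largest changes of the 9 receptors. Control B6 BMDMs had 2.34, 2.48 and 2.52 CPM, AC treated B6 69.0, 89.2 and 82.8 CPM, and CpG treated B6 24.5, 19.5 and 22.5 CPM. Control SjSS BMDMs had 2.41, 3.43 and 1.74 CPM, AC treated SjSS 92.9, 90.1 and 87.8 CPM, and CpG treated SjSS 28.2, 22.7 and 20.9 CPM. In both strains the order was AC over CpG over control with no overlap between groups, while the strains overlapped in each condition. With AC *Olr1* rose by 5.04 ± 0.17 (SE) on the log2 scale in B6 (32.8-fold, adjusted p = 3.90e-12) and by 5.21 ± 0.18 in SjSS BMDMs (37.0-fold, adjusted p = 1.86e-13). With CpG it rose by 3.18 ± 0.17 in B6 (9.07-fold, adjusted p = 8.17e-11) and by 3.29 ± 0.18 in SjSS BMDMs (9.80-fold, adjusted p = 9.57e-11). The control levels rested on 407 counts in B6 and 343 in SjSS BMDMs over 3 samples.

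*Mrc1* (chromosome 2, 14229392 to 14332057, plus strand), the mannose receptor, is the gene in which the AC responses of the strains differed most. It was at 513, 601 and 535 CPM in control B6, 187, 216 and 213 CPM with AC and 161, 197 and 199 CPM with CpG. In the SjSS groups it was at 489, 470 and 437 CPM in control, 477, 418 and 447 CPM with AC and 222, 193 and 198 CPM with CpG. The AC treated SjSS samples overlapped their controls, whereas AC treated B6, CpG treated B6 and CpG treated SjSS samples all lay far below theirs. In B6 BMDMs *Mrc1* fell by 1.42 ± 0.09 (SE) on the log2 scale with AC (adjusted p = 1.40e-10) and by 1.56 ± 0.09 with CpG (adjusted p = 4.96e-12). In SjSS BMDMs it fell by 1.19 ± 0.09 with CpG (adjusted p = 3.83e-10; -1.32, past the fold threshold, on library totals), and the AC difference was -0.06 ± 0.08 (adjusted p = 0.592), or -0.47 (adjusted p = 3.29e-05) on library totals. The microRNA gene *Mir511* lies within *Mrc1*, so the reads of both could be divided between them in counting.

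*Stab1* (chromosome 14, 31139013 to 31168641, minus strand) encodes stabilin-1, which clears SPARC and binds phosphatidylserine on dying cells. It was at 1507, 1385 and 1467 CPM in control B6, 641, 665 and 626 CPM with AC and 832, 767 and 734 CPM with CpG. In SjSS BMDMs it was at 1158, 1241 and 1304 CPM in control, 744, 700 and 793 CPM with AC and 580, 654 and 601 CPM with CpG. All treated samples lay below all controls, and the 2 treatments were in opposite order in the 2 strains, with AC the lower in B6 and CpG the lower in SjSS BMDMs. *Stab1* fell by 1.17 ± 0.07 (SE) on the log2 scale with AC in B6 (adjusted p = 4.27e-11) and by 0.73 ± 0.07 in SjSS BMDMs (adjusted p = 6.72e-09). With CpG it fell by 0.90 ± 0.07 in B6 (adjusted p = 2.85e-10) and by 1.01 ± 0.07 in SjSS BMDMs (adjusted p = 6.61e-11). *Stab1* overlaps *Nt5dc2*, as *Scarb1* overlaps *Gm42633* and *Lrp1* overlaps *Gm16217*, and whether the counting used strand is not given in the sources used here, which leaves their values uncertain where reads could be shared.

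*Cd163* (chromosome 6, 124304656 to 124330527, plus strand), the hemoglobin scavenger receptor, was low in all groups, between 195 and 846 counts over the 3 samples of a group. It was at 5.14, 5.32 and 4.80 CPM in control B6, 1.19, 2.76 and 2.61 CPM with AC and 3.04, 5.17 and 4.02 CPM with CpG. The SjSS samples were at 1.42, 1.80 and 1.83 CPM in control, 0.982, 1.54 and 1.88 CPM with AC and 1.60, 2.10 and 1.76 CPM with CpG. Control B6 BMDMs thus stood above all SjSS samples, and within SjSS the 3 conditions overlapped. *Cd163* fell with AC in B6 BMDMs by 1.22 ± 0.26 (SE) on the log2 scale (adjusted p = 7.74e-04). Without replicate 2 or 3 of AC treated B6 that fall was 1.43 or 1.36 in size, past the fold threshold, and it was 0.92 in size without replicate 1. The other 3 responses, -0.18 ± 0.28 with AC in SjSS, -0.33 ± 0.25 with CpG in B6 and 0.11 ± 0.28 with CpG in SjSS BMDMs, did not pass (adjusted p between 0.273 and 0.761), and the last was -0.02 (adjusted p = 0.968) on library totals.

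*Lrp1* (chromosome 10, 127538161 to 127621148, minus strand), the endocytic receptor for apolipoprotein E and for calreticulin on dying cells, fell in every response. It was at 1806, 1992 and 2283 CPM in control B6, 1530, 1419 and 1391 CPM with AC and 1003, 1232 and 1262 CPM with CpG. In the SjSS groups it was at 2452, 2436 and 2573 CPM in control, 1221, 968 and 1177 CPM with AC and 1088, 1209 and 1128 CPM with CpG. The control samples of SjSS were the highest of all, and no treated sample reached a control sample of its strain. *Lrp1* fell by 0.49 ± 0.10 (SE) on the log2 scale with AC in B6 (adjusted p = 4.62e-04) and by 1.15 ± 0.10 in SjSS BMDMs (adjusted p = 4.26e-09). With CpG it fell by 0.80 ± 0.10 in B6 (adjusted p = 6.43e-07) and by 1.12 ± 0.10 in SjSS BMDMs (adjusted p = 7.92e-09). On library totals the AC response of SjSS BMDMs was -1.56, past the fold threshold.

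Between untreated BMDMs of the strains, 2 receptors were higher and 3 lower in SjSS than in B6, where 8.73% of all genes were higher and 10.4% lower. *Cd163* was lower by 1.60 ± 0.26 (SE) on the log2 scale (3.03-fold, adjusted p = 2.68e-04) and was the 1 receptor called, where 0.709% of all genes were called lower. *Msr1* was lower (-0.43 ± 0.07, adjusted p = 1.68e-04). *Stab1* was lower (-0.23 ± 0.07, adjusted p = 0.0156), but did not pass without replicate 1 of control B6 (-0.21, adjusted p = 0.0658) or of control SjSS (-0.19, adjusted p = 0.0712), on library totals (-0.19, adjusted p = 0.0516) or when only the control samples were fitted (-0.22, adjusted p = 0.0505). *Cd36* was higher (0.50 ± 0.13, adjusted p = 0.0139), but did not pass without replicate 2 of control SjSS (0.46, adjusted p = 0.0509). *Lrp1* was higher (0.30 ± 0.10, adjusted p = 0.0370). That difference did not pass without replicate 1 or 2 of control B6 (0.22 and 0.28) or without replicate 1, 2 or 3 of control SjSS (0.31, 0.31 and 0.27), with adjusted p between 0.0630 and 0.164. For *Marco* the difference of -1.12 ± 0.41 did not pass (adjusted p = 0.0780), although the strains did not overlap, and it passed with DESeq2 (adjusted p = 0.0174). *Mrc1* (-0.24 ± 0.08, adjusted p = 0.0530) passed with DESeq2 (adjusted p = 0.0371), with no filter on low counts (adjusted p = 0.0381), with the control samples alone (adjusted p = 0.0498) and without replicate 1 of control B6 (-0.29, adjusted p = 0.0458). *Scarb1* (-0.15 ± 0.06, adjusted p = 0.103) passed without replicate 3 of control SjSS (-0.20, adjusted p = 0.0416). *Olr1* did not pass under either scaling and was at 0.04 on library totals.

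With AC, 2 receptors were higher and 2 lower in SjSS BMDMs, against 23.9% and 25.4% of all genes, and none was called (8.87% of all genes). *Mrc1* was higher by 1.12 ± 0.09 (SE) on the log2 scale (2.18-fold, adjusted p = 1.37e-09). *Stab1* was higher by 0.21 ± 0.07 (adjusted p = 0.0111), but did not pass without replicate 3 of AC treated SjSS (0.17, adjusted p = 0.0689), and was at -0.09 (adjusted p = 0.257) on library totals. *Lrp1* (-0.37 ± 0.10, adjusted p = 0.00378) and *Scarb1* (-0.25 ± 0.06, adjusted p = 0.00217) were lower. *Msr1*, at 0.06 ± 0.07 (adjusted p = 0.477), was lower on library totals (-0.24, adjusted p = 0.00206). *Cd163*, at -0.56 ± 0.28, did not pass, but passed without replicate 1 of AC treated B6 (-0.86, adjusted p = 0.00686) and on library totals (-0.86, adjusted p = 0.00998). *Olr1* (0.17 ± 0.13), *Cd36* (0.15 ± 0.13) and *Marco* (-0.24 ± 0.41) did not pass. On library totals *Olr1* was at -0.13 (adjusted p = 0.382) and *Cd36* at -0.15 (adjusted p = 0.327). That scaling gave 1 receptor higher and 4 lower.

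With CpG, 1 receptor was higher and 4 were lower in SjSS BMDMs, against 9.96% and 9.49% of all genes, and none was called (2.60% of all genes). *Cd36* was higher by 0.63 ± 0.13 (SE) on the log2 scale (adjusted p = 0.00271). *Msr1* was lower by 0.71 on that scale (SE 0.07, adjusted p = 4.23e-07 for -0.71), with all 3 SjSS samples below all 3 B6 samples. *Cd163* (-1.16 ± 0.27, adjusted p = 0.00419), *Scarb1* (-0.38 ± 0.06, adjusted p = 1.96e-04) and *Stab1* (-0.35 ± 0.07, adjusted p = 7.50e-04) were lower as well, and *Cd163* was past the fold threshold without replicate 1 of CpG treated B6 (-1.33). *Marco*, at 2158 ± 793 CPM in SjSS and 4332 ± 782 CPM in B6 BMDMs (SD, n = 3), did not pass (-1.01 ± 0.41, adjusted p = 0.110), and passed with DESeq2 (-1.03, adjusted p = 0.0293). *Olr1* (0.11 ± 0.14), *Mrc1* (0.14 ± 0.09) and *Lrp1* (-0.03 ± 0.10) did not pass, and on library totals *Mrc1* passed (0.23, adjusted p = 0.0493) and *Lrp1* was at 0.06 (adjusted p = 0.698).

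**Figure D4:**
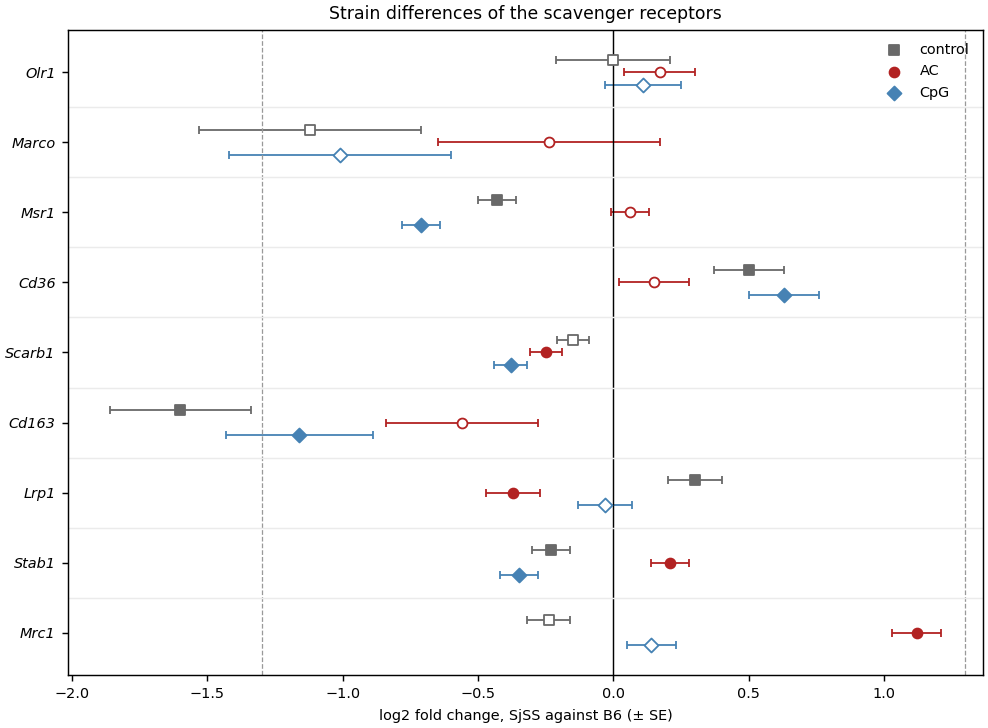
Log2 fold change (± SE) of SjSS against B6 BMDMs for each receptor without treatment (squares), with AC (circles) and with CpG (diamonds). Filled symbols have an adjusted p under 0.05, and dashed lines mark 1.3 in size. *Mrc1* with AC stands at 1.12, apart from its values without treatment (-0.24) and with CpG (0.14).

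Whether the strains responded differently was tested by an interaction term for strain and treatment. For AC, 4 receptors had a higher and 1 a lower response in SjSS than in B6 BMDMs, against 19.4% and 18.2% of all genes. On library totals it was 1 higher and 3 lower. *Mrc1* differed most (1.36 ± 0.12 SE on the log2 scale, adjusted p = 2.49e-08) and was the 1 receptor called, where 4.72% of all genes were called higher. It was no longer past the fold threshold without replicate 2 of control B6 (1.29), without replicate 1 of AC treated B6 or on library totals (1.02, adjusted p = 5.00e-07). *Msr1* (0.49 ± 0.10, adjusted p = 4.17e-04) had the larger increase in SjSS, and *Stab1* (0.45 ± 0.09, adjusted p = 7.01e-04) the smaller decrease. Neither passed on library totals (0.15, adjusted p = 0.170, and 0.10, adjusted p = 0.388). *Lrp1* (-0.66 ± 0.14, adjusted p = 7.24e-04) had the larger decrease in SjSS BMDMs.

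The interaction of *Cd163* with AC (1.03 ± 0.38 SE, adjusted p = 0.0392) was lost without any 1 of 7 libraries. These were replicate 1 (1.03) or 2 (1.00) of control B6, replicate 1 of AC treated B6 (0.74), replicate 1 (0.92) or 2 (1.08) of control SjSS and replicate 2 (1.00) or 3 (0.82) of AC treated SjSS, with adjusted p between 0.0534 and 0.132. On library totals it was 0.69 (adjusted p = 0.139). *Cd36* (-0.34 ± 0.18, adjusted p = 0.164) passed without replicate 2 of control B6 (-0.48, adjusted p = 0.0393) and on library totals (-0.69, adjusted p = 0.00444). *Scarb1* (-0.11 ± 0.09, adjusted p = 0.378) passed on library totals (-0.45, adjusted p = 3.70e-04). *Marco* (0.88 ± 0.58, adjusted p = 0.268) and *Olr1* (0.17 ± 0.25, adjusted p = 0.640) did not pass, and *Olr1* was at -0.17 (adjusted p = 0.590) on library totals. With the replicate number as a block within strain, *Marco* (0.93 ± 0.10, adjusted p = 1.76e-06) and *Cd36* (-0.36, adjusted p = 0.0307) passed.

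For CpG, 0 receptors passed the interaction test of edgeR, where 3.13% of all genes had a higher and 2.60% a lower response in SjSS. At an unadjusted p under 0.05 there were 4, *Msr1*, *Mrc1*, *Scarb1* and *Lrp1*, but the share of all genes at that p was not counted. With DESeq2 2 passed, *Mrc1* (0.35, adjusted p = 0.0498) and *Msr1* (-0.31, adjusted p = 0.0303). In that fit 600 of 15789 genes had a higher and 767 a lower response in SjSS. *Mrc1* also passed on library totals (0.43, adjusted p = 0.0289). The values of edgeR were 0.38 ± 0.12 (SE, adjusted p = 0.0738) for *Mrc1* and -0.28 ± 0.10 (adjusted p = 0.0948) for *Msr1*.

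Of 15 further genes, scavenger receptors of the same or other classes or genes with like ligands, the table held 12, and 11 had enough counts to be tested. The list thus does not stand for different classes only, as *Scarb2* shares class B with *Cd36* and *Scarb1*. With AC, 2 rose and 4 fell in B6 BMDMs, against 19.8% and 18.2% of all genes. In AC treated SjSS BMDMs 4 rose and 2 fell, against 28.5% and 29.3%, and 3 rose and 5 fell on library totals, where 13.1% and 56.4% of all genes did. With CpG, 2 rose and 5 fell in B6 BMDMs, against 28.1% and 29.7%, and 3 rose and 5 fell in SjSS BMDMs, against 27.8% and 26.3%. *Cxcl16*, the transmembrane chemokine that binds oxidized LDL, rose with AC from 259 to 751 CPM in SjSS BMDMs (log2 fold change 1.53 ± 0.07 SE, adjusted p = 1.14e-13) and from 246 to 397 CPM in B6 BMDMs (0.69 ± 0.07, adjusted p = 8.82e-08). *Scarf1*, a class F receptor, rose with CpG in B6 BMDMs from 62.7 to 168 CPM (1.43 ± 0.09, adjusted p = 9.85e-11). In SjSS BMDMs *Scarf1* rose with CpG (0.93 ± 0.09, adjusted p = 6.55e-08) and AC (1.00 ± 0.09, adjusted p = 1.68e-08). With AC in B6 BMDMs it did not pass (-0.10 ± 0.09, adjusted p = 0.447). Its interaction of strain was 1.10 ± 0.13 with AC (adjusted p = 1.80e-06) and -0.50 ± 0.13 with CpG (adjusted p = 0.0274). *Scarb2*, the lysosomal class B protein LIMP-2, fell with CpG from 396 to 155 CPM in B6 (-1.36 ± 0.06, adjusted p = 1.87e-13) and from 438 to 183 CPM in SjSS BMDMs (-1.26 ± 0.06, adjusted p = 8.46e-13). *Stab2*, the relative of *Stab1*, was low and fell with CpG from 5.54 to 0.709 CPM in B6 (-2.94 ± 0.25, adjusted p = 2.51e-09) and from 4.31 to 1.22 CPM in SjSS BMDMs (-1.81 ± 0.23, adjusted p = 1.47e-06).

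Between the strains, 8 of these 11 genes were higher and 0 lower in SjSS BMDMs with AC, with a median log2 fold change of 0.85 against -0.05 over all genes, of which 23.9% were higher and 25.4% lower. On library totals 7 were higher and 2 lower, where 13.1% of all genes were higher and 53.0% lower. Without treatment 1 was higher and 2 lower, against 8.73% and 10.4% of all genes. With CpG 2 were higher and 3 lower, against 9.96% and 9.49%, and 4 higher and 1 lower on library totals, against 17.6% and 5.40%. The interaction with AC was higher in SjSS for 6 and lower for 0, against 19.4% and 18.2% of all genes, and on library totals higher for 5 and lower for 1, against 9.09% and 41.8%. That with CpG was higher for 0 and lower for 1, against 3.13% and 2.60%. *Megf10*, an engulfment receptor, was higher in SjSS in all 3 conditions, at 0.654 against 0.199 CPM without treatment (1.67 ± 0.49 SE, adjusted p = 0.0222), 0.543 against 0.186 CPM with AC (1.53 ± 0.51, adjusted p = 0.0166) and 0.419 against 0.0776 CPM with CpG (2.33 ± 0.59, adjusted p = 0.00835), with 11 to 85 counts over a group.

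Of 14 ligands, adaptors, proteases and transcription factors tied to the receptors, 13 passed the filter. With AC, 2 rose and 7 fell in B6 BMDMs, where 19.8% of all genes rose and 18.2% fell. In AC treated SjSS BMDMs 3 rose and 5 fell, where 28.5% and 29.3% of all genes did. On library totals 2 rose and 10 fell there, against 13.1% and 56.4%. With CpG, 7 rose and 4 fell in B6, against 28.1% and 29.7%, and 7 rose and 5 fell in SjSS BMDMs, against 27.8% and 26.3%. *Hmox1*, the enzyme that breaks down heme taken up through CD163, rose with AC from 1458 to 7838 CPM in B6 (2.43 ± 0.09 SE, adjusted p = 4.72e-13) and from 1245 to 5933 CPM in SjSS BMDMs (2.25 ± 0.09, adjusted p = 5.17e-14), while *Cd163* itself fell in B6. Between the strains, 1 of the 13 genes was higher and 3 lower in SjSS without treatment, where 8.73% and 10.4% of all genes were. With AC 4 were higher and 3 lower, against 23.9% and 25.4% of all genes, and 2 higher and 8 lower on library totals, against 13.1% and 53.0%. With CpG 3 were higher and 5 lower, against 9.96% and 9.49%, and 3 higher and 2 lower on library totals, against 17.6% and 5.40%. The interaction with AC was higher in SjSS for 4 and lower for 3, against 19.4% and 18.2%, and on library totals higher for 2 and lower for 8, against 9.09% and 41.8%. That with CpG was higher for 2 and lower for 0, against 3.13% and 2.60%.

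Across the 18 samples, which share 6 conditions, the genes whose log2 CPM was most like that of each receptor are given as a description. They were *Plpp3* (Pearson r = 0.979) and *Ezr* (0.975) for *Olr1*, *Kif1c* (0.959) and *Lrrc25* (0.958) for *Marco*, and *Tgfb1* (0.958) and *Klf7* (0.951) for *Msr1*. For *Mrc1* they were *Ccpg1* (0.971) and *Plxnc1* (0.968), for *Stab1* *Ldhb* (0.958) and *Vsir* (0.952), and for *Lrp1* *Hmha1* (0.978) and *Cracr2a* (0.973). *Cd36* was most like *Pltp* (0.962) and *Ctsl* (0.946), *Scarb1* like *Lman2l* (0.955) and *Oplah* (0.943), and the low *Cd163* like *H1f0* (0.859) and *Ssbp4* (0.847). Among the receptors themselves, *Marco* and *Msr1* (r = 0.87) and *Stab1* and *Scarb1* (0.84) varied most alike, and *Olr1* and *Stab1* (-0.88) most opposite.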

How the data were processed

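The authors aligned paired-end reads to mm10 with STAR in Partek Flow, and the deposited values are estimated counts per gene from Partek's E/M tool, not normalized (41.1% of them are not whole). Reads divided by estimation between overlapping or similar genes make such genes less certain. Counts were rounded, scaled by TMM and filtered by filterByExpr in edgeR 4.0.16 (limma 3.58.1, R 4.3.3). All 18 samples entered 1 quasi-likelihood fit with a mean per group, and 9 comparisons were adjusted by Benjamini-Hochberg over 15789 genes. The fit was tested on simulated data, where it recovered 200 of 200 genes changed by a log2 of 2 in the AC response of SjSS, with 3 false calls among 15113 genes. These changes went up and down alike, and the simulated samples were independent. Smaller changes, a shift of all genes and samples that deviate together were therefore not tested by it. DESeq2 1.42.0, other scalings, filters, sample sets, a replicate block and each library left out were alternatives, and scaling on library totals was added after the data were seen. P-values set a difference of groups against the spread of samples around their group means, with all samples treated as independent. Groups came from the labels, and coordinates are those of GENCODE M21, since the ends in the table lie 1 base further. The members and lists were chosen with earlier results of these data known. Named were all 9 members, genes of the added lists called in any comparison, and the 2 genes most alike to each member by r of log2 CPM (prior count 2). Some genes of the added lists that this rule names are not reported here. Protein sequences were not used here.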

Additional observations from a re-analysis of the deposited data

Results flagged for a closer look

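The AC response differed between the strains, by the interaction term of edgeR, for 5 of the 9 receptors. On the log2 scale, SjSS minus B6, the difference was 1.36 for *Mrc1*, 1.03 for *Cd163*, 0.49 for *Msr1*, 0.45 for *Stab1* and -0.66 for *Lrp1*. *Mrc1* fell in B6 BMDMs, and its difference in SjSS BMDMs did not pass, while *Lrp1* fell further in SjSS BMDMs. In the same interaction 19.4% of all tested genes were higher and 18.2% lower. On library totals *Mrc1* (1.02, adjusted p = 5.00e-07) and *Lrp1* (adjusted p = 1.32e-05) passed, and *Cd163* (0.69, adjusted p = 0.139, edgeR), *Msr1* (0.15, adjusted p = 0.170) and *Stab1* (0.10, adjusted p = 0.388) did not, with 1 receptor higher and 3 lower against 9.09% and 41.8% of all genes. The interaction of *Cd163* was also lost in 7 of 12 fits that left out 1 library.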

How the results depend on the processing

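Depth limits *Cd163* and control *Olr1* most, at 195 to 846 and 343 to 407 counts over 3 samples, and *Marco* is limited by the spread within SjSS groups. DESeq2 size factors, no filter and 10 counts in 3 samples left every direction as it was and moved only *Mrc1* between untreated strains across the threshold, without a filter. Where no cause is named, the cause was not tested. With the DESeq2 Wald test, 5 receptors were lower in control SjSS, as were 1779 of 15789 genes. In the CpG interaction of that test 1 was higher and 1 lower, against 600 and 767 genes. With only the compared groups fitted, 1 receptor was called higher with AC in SjSS BMDMs, as were 1052 of 14813 genes.

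On library totals, a scaling that shifts all genes, 5 receptors fell with AC in SjSS (56.4% of all genes did). In that response 1 was called higher and 1 called lower (801 and 1895 of 15789 genes), and 1 was called lower with CpG in SjSS (906 genes). Between the strains, 1 was higher and 4 lower in SjSS with AC (13.1% and 53.0% of all genes) and 2 higher with CpG (17.6%). In the AC interaction 1 was higher (0 called) and 3 lower (9.09% and 41.8%), and in the CpG interaction 1 was higher (5.09%). Directions turned for *Cd36* (-0.30) with AC in SjSS, *Cd163* (-0.02) with CpG in SjSS, *Olr1* (0.04) between controls, *Cd36* (-0.15), *Msr1* (-0.24), *Stab1* (-0.09) and *Olr1* (-0.13) between AC treated strains, *Lrp1* (0.06) between CpG treated strains and *Olr1* (-0.17) in the AC interaction. CPM on raw totals gave a ratio of the highest to the lowest group of 2.07 for *Msr1*, 28.5 for *Olr1* and 2.95 for *Lrp1*, against 2.42, 36.9 and 2.22. As sums of CPM, the levels relative to control B6 were 0.898 (AC) and 1.29 (CpG) in B6 and 1.01 (control), 0.907 (AC) and 0.954 (CpG) in SjSS BMDMs.

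Near-zero differences turned with other settings. *Olr1* between controls was 0.02 with DESeq2 and 0.04 with the compared groups alone. With each library left out, it ran from -0.24 to 0.22, *Cd163* with AC in SjSS from -0.40 to 0.03, with CpG from -0.004 to 0.20, *Marco* between AC treated strains from -0.46 to 0.07, *Olr1* and *Lrp1* between CpG treated strains from -0.03 to 0.20 and -0.13 to 0.01, *Olr1* in the AC interaction from -0.05 to 0.40, and in the CpG interaction *Cd36* from -0.01 to 0.28, *Marco* from -0.24 to 0.39 and *Olr1* from -0.11 to 0.34. The count of receptors that rose with AC in B6 ran from 1 to 3 (1 without replicate 3 of AC treated B6), of those called lower there from 1 to 2 (2 without replicate 2 or 3 of AC treated B6), and of those called higher with AC in SjSS from 1 to 2 (1 without replicate 1 of control SjSS). The count higher in control SjSS ran from 0 to 2 (0 without replicate 2 of control SjSS, 1 without replicate 1 or 2 of control B6 or replicate 1 or 3 of control SjSS), that higher in AC treated SjSS from 1 to 2 (1 without its replicate 3), and that called lower in CpG treated SjSS from 0 to 1 (1 without replicate 1 of CpG treated B6). In the AC interaction the lower ran from 1 to 2 (2 without replicate 2 of control B6) and the called higher from 0 to 1 (0 without replicate 2 of control B6 or replicate 1 of AC treated B6). The shares of all genes in the fits with a library left out are not given here. A change in these counts is therefore not read as particular to the receptors.

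The sources do not say whether same-numbered samples share a mouse, but within a strain they deviated more alike than samples of different numbers. Deviations of same-numbered samples correlated at 0.02 to 0.26, with 9 of 18 pairs over 0.1, and those of different numbers at -0.25 to 0.07. Within a strain, a sample was compared with the 3 samples of another group, and in 16 of 18 such comparisons its own number correlated best. A sample could enter more than 1 comparison. Deviations were taken from the group mean, so correlations at the same and at different numbers are not independent. Between the strains, same-numbered samples correlated at -0.09 to 0.06. The main fit has no term for the replicate number. With the replicate number as a block over all samples, *Marco* between untreated strains (-1.22, adjusted p = 0.0448, edgeR) and *Cd163* between AC treated strains (-0.55, adjusted p = 0.0422) passed. With a replicate block within strain, 2 receptors were lower in the AC interaction (3136 of 15789 genes were) and 1 higher in the CpG interaction (783 genes). *Marco* then passed with AC in B6 (0.64 ± 0.07 SE, adjusted p = 2.42e-06) and in the AC interaction (0.93 ± 0.10, adjusted p = 1.76e-06), as did *Cd36* with CpG in B6 (-0.30) and in the AC interaction (-0.36) and *Mrc1* in the CpG interaction (0.38). Whether a receptor passed changed in no other comparison with either block.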
